A study of Mus musculus with 7 samples.

Results

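Rod photoreceptor transcripts, 39 listed genes of the rod cell and of photoreceptors in general, were measured in RNA from the retinal pigment epithelium (RPE) of mice. All 39 had a probe set annotated to 1 gene symbol only, out of 19938 genes measured in that way. The list was drawn up with earlier results of these data known, so shares of its members beside those of all genes are descriptions only. The 2 groups were 3 samples of the Mfrp rd6 genotype and 4 samples of wild type, both on the C57Bl/6J background, with 1 whole-transcript array for each sample. Mfrp encodes a membrane protein of the RPE, and the recessive rd6 allele is known for a retinal degeneration. The age field gives 12 weeks for all Mfrp rd6 samples and 8 weeks for all wild-type samples, so that by this field age and genotype cannot be told apart, whereas the growth protocol gives 12 weeks for Mfrp rd6 replicate 1 alone and 8 weeks for the other samples. Eyecups without cornea and lens were shaken in a preserving solution and the cells that came off were spun down, so the pellet can carry cells other than RPE. No label ties a replicate to its own animal, and the spread behind each p-value may therefore be technical.

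Rods detect light in a stack of membrane discs, the outer segment, where activated visual pigment turns on the G protein transducin, transducin turns on a phosphodiesterase that breaks down cGMP, and the loss of cGMP closes cation channels. Arrestin, a receptor kinase, a GTPase-accelerating protein and calcium-regulated guanylate cyclases end the response and restore cGMP. The tips of the outer segments lie between the apical processes of the RPE, which engulfs them every day, and a detached RPE sheet is known to take photoreceptor material along. A lower value in such a bulk sample does not tell fewer rod cells or fragments from less RNA in each, and these could not be separated here.

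Rod transcripts varied more among the wild-type samples than between the means of the genotypes. The mean log2 value of the 39 genes was 7.18, 7.38 and 7.42 on the Mfrp rd6 arrays (replicates 1 to 3), against 7.58, 7.59, 8.15 and 7.31 on the wild-type arrays (replicates 1 to 4). The groups overlapped, since wild-type replicate 4 lay below Mfrp rd6 replicates 2 and 3, and wild-type replicate 3 stood above every other array. Over replicates the mean was 7.32 ± 0.13 in Mfrp rd6 (SD, n = 3) and 7.66 ± 0.36 in wild type (SD, n = 4), a difference of -0.33. Wild-type replicate 3 had the highest wild-type value for 38 of the 39 genes (97.4%), against 32.3% of all genes, and Prom1 was the exception. Wild-type replicate 4 had the lowest wild-type value for 31 members (79.5%), against 19% of all genes. Mfrp rd6 replicate 1, the array that both age labels put at 12 weeks, had the lowest value in its group for 27 members (69.2%), against 34.8% of all genes. Wild-type replicate 3 also had the highest wild-type value for all 12 skeletal muscle markers, whose mean log2 level was 8.34 to 9.27 over the Mfrp rd6 arrays and 6.89 to 8.28 over the wild-type arrays. Mfrp rd6 replicate 2 stood apart in lens markers, with a list mean of 7.58, against 5.92 to 6.16 on all other arrays.

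**Figure D1:**
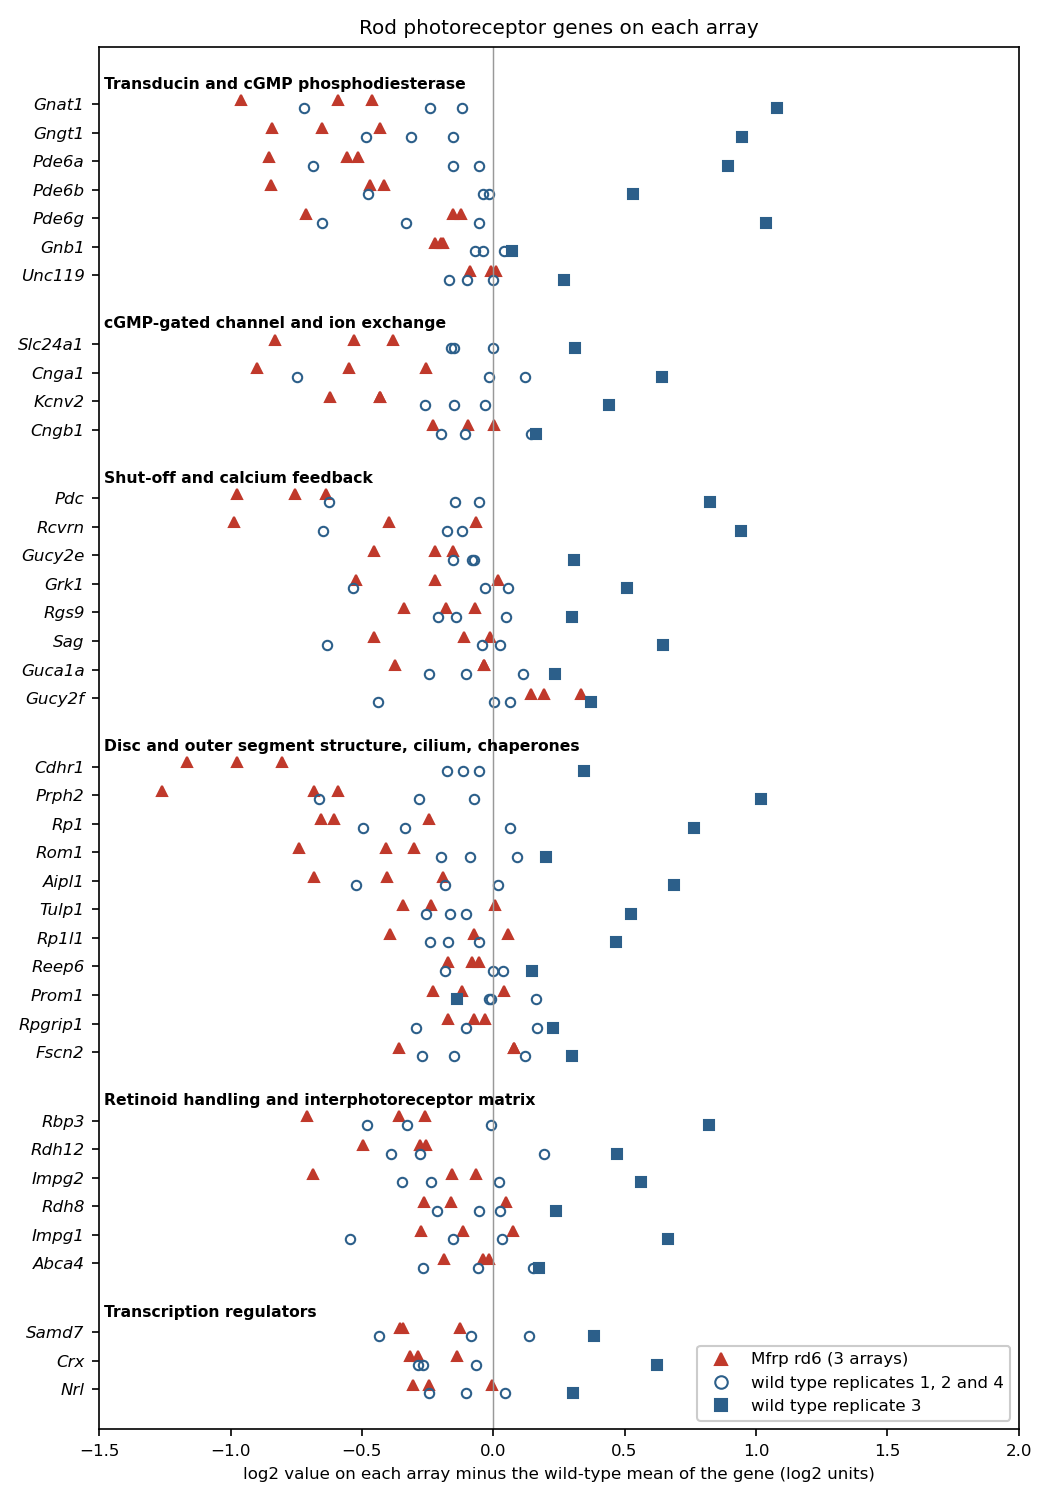
Each row is a rod or shared photoreceptor gene, grouped by role, and each point is 1 array, plotted as its log2 value minus the wild-type mean of that gene; triangles are the 3 Mfrp rd6 arrays, open circles wild-type replicates 1, 2 and 4, and filled squares wild-type replicate 3. The square is the rightmost wild-type point in 38 of 39 rows, and in 6 rows all triangles lie left of all wild-type points.

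The size of the excess on wild-type replicate 3 differed widely between members. Its log2 value minus the mean of the other 3 wild-type arrays ran from -0.18 to 1.44 with a median of 0.62, and it reached at least 1 log2 unit for 9 members (23.1%), against 0.13% of all genes. The largest were 1.44 for Gnat1, the rod transducin alpha subunit, 1.38 for Pde6g, the inhibitory subunit of the phosphodiesterase, and 1.36 for Prph2, a tetraspanin of the disc rim. The 5 members under 0.25 were Prom1 (-0.18), a membrane protein of protrusions, Gnb1 (0.09), a G protein beta subunit made in most cells, Reep6 (0.20), a membrane-shaping protein, Cngb1 (0.22), the rod channel's beta subunit, and Abca4 (0.23), a retinoid flippase of disc rims. Cngb1 had 4 probe sets of its own, of which the one with the highest mean is given.

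The members varied together across arrays of the same genotype. After each group's mean was taken off, the Pearson correlation of a member with the mean of the other 38 had a median of 0.92 over the 7 arrays and was at least 0.9 for 21 members (53.8%). The same held for 0.90% of all other genes against the mean of the 39. The highest were 0.99 for Pde6a and Gnat1, and the lowest were -0.56 for Prom1, 0.37 for Abca4 and 0.39 for Rom1. All points of such a correlation share the array, and wild-type replicate 3 carries much of the range. Prom1 was the 1 member with a negative correlation. The absence of a detection call in the deposited values limits what can be said of dim members: 33 of the 39 had a mean above 5.61, the 95th percentile of 1035 olfactory receptor probe sets, and Gngt1, Cnga1, Rdh12, Impg1, Impg2 and Nrl did not.

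Promoter sequence is shown for Cdhr1, the member that passed the test below, and for the 4 members with the largest excess on wild-type replicate 3 among those with 1 entry in the RefSeq promoter table (build GRCm38.p6). Each is the 150 bases before the transcription start, 5′ to 3′ on the gene's strand, and capitals mark the hexamer GGATTA or its reverse complement TAATCC, the core bound by CRX, the homeodomain factor of photoreceptors.
Cdhr1 (chr14:37098348-37098497, minus strand): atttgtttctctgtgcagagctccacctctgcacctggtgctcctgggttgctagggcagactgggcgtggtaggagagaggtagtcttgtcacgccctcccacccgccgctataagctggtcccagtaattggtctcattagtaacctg
Prph2 (chr17:46910328-46910477, plus strand): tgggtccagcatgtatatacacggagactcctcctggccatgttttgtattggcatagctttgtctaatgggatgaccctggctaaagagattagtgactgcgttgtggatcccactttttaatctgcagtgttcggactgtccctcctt
Gngt1 (chr6:3993858-3994007, plus strand): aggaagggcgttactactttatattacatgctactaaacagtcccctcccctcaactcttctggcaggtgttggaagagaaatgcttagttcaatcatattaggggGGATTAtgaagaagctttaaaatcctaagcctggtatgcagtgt
Pdc (chr1:150319267-150319416, plus strand): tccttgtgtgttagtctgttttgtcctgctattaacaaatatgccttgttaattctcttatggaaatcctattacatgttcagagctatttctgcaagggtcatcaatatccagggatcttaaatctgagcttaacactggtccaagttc
Rbp3 (chr14:33953853-33954002, plus strand): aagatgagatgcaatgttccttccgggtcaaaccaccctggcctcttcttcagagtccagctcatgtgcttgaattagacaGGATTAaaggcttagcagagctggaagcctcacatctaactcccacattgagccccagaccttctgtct
The hexamer begins 44 bases before the start in Gngt1 and 69 bases before it in Rbp3, and these letters are not in the windows of Cdhr1, Prph2 and Pdc. In the 250 bases before the start, on either strand, 14 of the 31 members with a usable entry held GGATTA (45.2%), against 1078 of 15614 measured genes with an entry (6.90%). TGCTGA or its reverse complement TCAGCA, a short core of the element bound by NRL, the leucine-zipper factor of rods, was held by 8 of the 31 members (25.8%) and by 16.8% of the genes. Such a match is a run of letters and not a shown binding site. Members that follow the common pattern are found with and without it.

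Between the genotypes, 38 of the 39 members had a lower mean in Mfrp rd6, but only Cdhr1 passed the test. The call was a limma adjusted p under 0.05 over all 19938 genes, and 1 member fell (2.56%) and 0 rose. Of all genes, 0.813% fell and 1.34% rose. Before adjustment 9 members had p under 0.05 (23.1%), against 15.4% of all genes. The median log2 change of the members was -0.27, against -0.02 for all genes tested, and 56.5% of all genes had a negative change. In 6 members every Mfrp rd6 array lay below every wild-type array (15.4%), against 9.82% of all genes, namely Cdhr1, Slc24a1, Rom1, Kcnv2, Pdc and Gnb1. Without wild-type replicate 3 the members' median was -0.15, 32 members had a negative change against 53.3% of all genes, and Cdhr1 remained the 1 member called (0.391% of all genes fell in that fit). With weights estimated for each array the median was -0.14. With a variance trend and robust moderation 4 members fell (10.3%), against 1.78% of all genes, namely Gnb1, Slc24a1 and Rom1 beside Cdhr1. Without Mfrp rd6 replicate 1, a comparison of equal ages by the growth protocol, the median was -0.21.

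**Figure D2:**
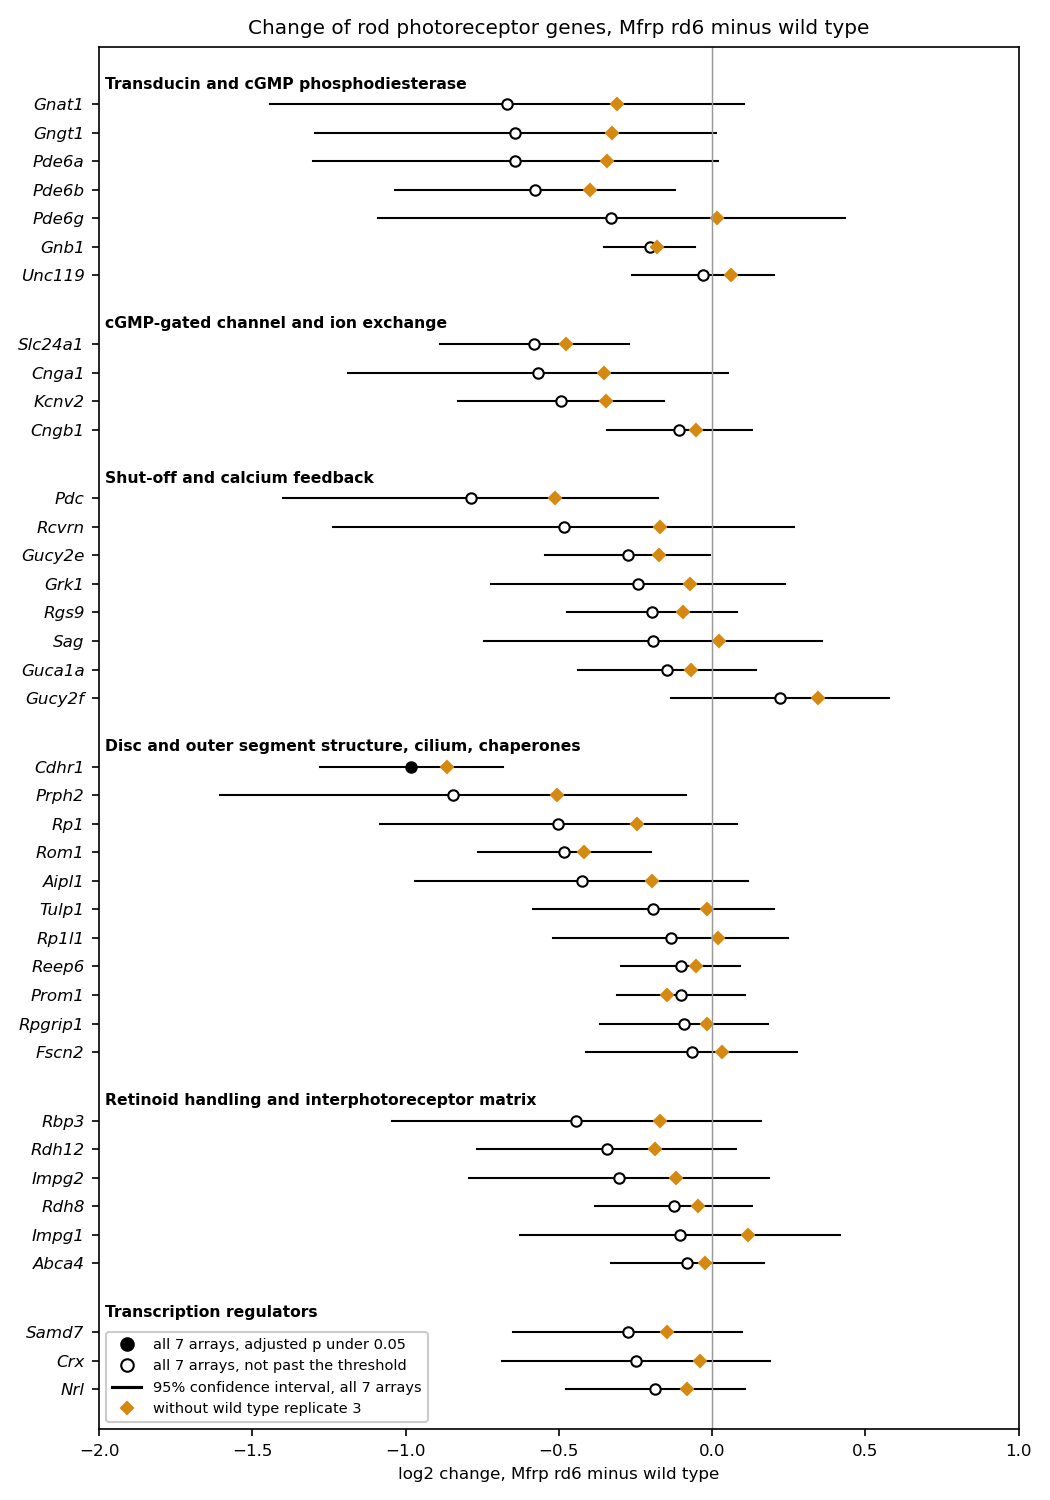
Log2 change of each rod or shared photoreceptor gene, Mfrp rd6 minus wild type, with its 95% confidence interval from limma over all 7 arrays (circles, filled where the adjusted p was under 0.05) and the change without wild-type replicate 3 (diamonds). The filled circle is Cdhr1 at -0.98, and the members' median moves to -0.15 without that array, against -0.27 with it.

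Cdhr1, a cadherin at the base of the rod outer segment where new discs form, passed the test in each of the 17 alternative fits. In those without a covariate Cdhr1 fell by 0.87 to 1.07 log2 units in Mfrp rd6, and the fit with one is given below. It read 8.99, 9.16 and 8.80 on the Mfrp rd6 arrays, against 9.85, 9.91, 10.31 and 9.79 on the wild-type arrays. Every Mfrp rd6 array was below every wild-type array, with 0.63 log2 units between the closest arrays of the 2 groups. The mean was 8.98 ± 0.18 in Mfrp rd6 (SD, n = 3) and 9.97 ± 0.24 in wild type (SD, n = 4), which is 1.97-fold lower, a log2 change of -0.98 (SE 0.13, 95% confidence interval -1.28 to -0.68, limma adjusted p = 0.00567). Without wild-type replicate 3 the change of Cdhr1 was -0.87 (limma adjusted p = 0.00527), and without Mfrp rd6 replicate 1 it was -0.98 (limma adjusted p = 0.0286). Cdhr1 was also set against the other 38 members on the same array. Cdhr1 minus their mean was 1.86, 1.83 and 1.42 in Mfrp rd6, against 2.33, 2.38, 2.21 and 2.55 in wild type. The groups did not overlap on that measure, which holds the same Cdhr1 values and is no separate test. Cdhr1 followed the common rod pattern less closely than most members. Its within-group correlation with the mean of the others was 0.76, against a median of 0.92, and its excess on wild-type replicate 3 was 0.46, against a median of 0.62. Which cells of the pellet gave the Cdhr1 signal was not tested. With the mean of the other members as a covariate, a fit added after seeing the data, the change of Cdhr1 was -0.80 (SE 0.12, limma adjusted p = 0.0215), and it was the 1 member called in such fits. By construction such a fit takes off what a member shares with the others: 21 of the 39 members then had a positive change, among them 20 that were negative without the covariate, such as Gnat1 (0.04), Pde6g (0.38), Sag (0.30) and Impg1 (0.37), and none of these passed.

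**Figure D3:**
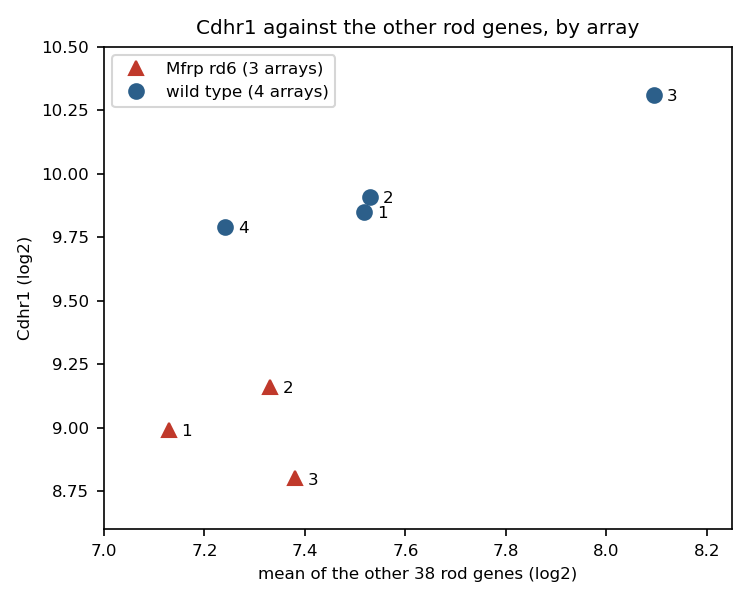
Log2 value of Cdhr1 (vertical) against the mean log2 value of the other 38 rod and shared photoreceptor genes (horizontal), 1 point for each array, numbered by replicate, with triangles for Mfrp rd6 and circles for wild type. Wild-type replicate 4 has a mean of the others (7.24) between those of Mfrp rd6 replicates 1 and 2, while its Cdhr1 value of 9.79 lies above all 3 Mfrp rd6 values.

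Among genes of transducin and the phosphodiesterase, 0 of 7 passed the test, and the 7 changes ran from -0.67 to -0.03 with a median of -0.58. Counts by role, here and below, stand against 0.813% of all genes fallen and 1.34% risen. In groups this small, 0 calls say little about a role. Gnat1 read 9.75, 10.25 and 10.12 in Mfrp rd6, against 10.47, 10.59, 11.79 and 9.99 in wild type, so the groups overlapped through wild-type replicate 4. Its change was -0.67 (SE 0.34, limma adjusted p = 0.402), and -0.31 without wild-type replicate 3. Gngt1, the gamma subunit of rod transducin, read 4.92, 5.33 and 5.11 in Mfrp rd6, against 5.61, 5.45, 6.71 and 5.28 in wild type (change -0.64, limma adjusted p = 0.335). Its level is near that of olfactory receptor probe sets, where RMA can understate changes, which was not measured here. Pde6a and Pde6b, the catalytic subunits, differed by -0.64 and -0.58, and Pde6b ranged from 6.00 to 6.43 in Mfrp rd6, against 6.37 to 7.38 in wild type. Pde6g differed by -0.33, and by 0.02 without wild-type replicate 3. Gnb1 had narrow groups, at 12.59, 12.58 and 12.56 in Mfrp rd6 and 12.74, 12.82, 12.85 and 12.71 in wild type, which did not overlap, and its change of -0.20 did not pass (limma adjusted p = 0.18). Unc119, a lipid-binding carrier of transducin that other tissues make too, had the smallest change of the group (-0.03).

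Of the 4 genes of the cGMP-gated channel and of ion exchange, 0 passed, with a median change of -0.53. Slc24a1, the sodium, calcium and potassium exchanger of the rod plasma membrane, read 9.64, 9.79 and 9.34 in Mfrp rd6, against 10.17, 10.02, 10.48 and 10.01 in wild type. These groups did not overlap, and the change of -0.58 (SE 0.14, limma adjusted p = 0.0702) was the nearest to the threshold after Cdhr1. Slc24a1 passed with a variance trend and robust moderation (limma adjusted p = 0.0324). Cnga1, the alpha subunit of the rod channel, read 4.78, 5.13 and 5.42 in Mfrp rd6, against 5.66, 5.80, 6.32 and 4.93 in wild type (change -0.57, limma adjusted p = 0.372), and wild-type replicate 4 lay among the Mfrp rd6 values. Kcnv2, a silent potassium channel subunit of the inner segment, differed by -0.49 with no overlap (limma adjusted p = 0.151). Cngb1 differed by -0.11.

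Of the 8 genes of shut-off and calcium feedback, 0 passed, and the median change was -0.22. Pdc, phosducin, which binds the transducin beta and gamma subunits, read 5.25, 5.03 and 5.37 in Mfrp rd6, against 5.86, 5.95, 6.83 and 5.38 in wild type. The groups were 0.01 apart at their closest arrays, and the change was -0.79 (SE 0.27, limma adjusted p = 0.203). Rcvrn, recoverin, the calcium sensor that restrains the receptor kinase, read 6.15, 6.74 and 7.07 in Mfrp rd6, against 7.02, 6.96, 8.08 and 6.49 in wild type, with overlap (change -0.48, limma adjusted p = 0.559). The guanylate cyclase Gucy2e, the kinase Grk1, the GTPase accelerator Rgs9, the rod arrestin Sag and the cyclase activator Guca1a differed by -0.28, -0.24, -0.20, -0.19 and -0.15. Gucy2f, the other retinal guanylate cyclase, was the 1 member with a positive difference, 0.22 (limma adjusted p = 0.572). Its values were 7.05, 6.91 and 6.86 in Mfrp rd6, against 6.78, 6.72, 7.09 and 6.28 in wild type, so wild-type replicate 3 was above all Mfrp rd6 arrays.

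Of the 11 genes of disc structure, the cilium and chaperones, Cdhr1 fell and the other 10 did not pass, with a median change of -0.19 over all 11. Prph2, whose complexes shape the disc rim, read 7.03, 7.61 and 7.70 in Mfrp rd6, against 8.01, 8.22, 9.31 and 7.63 in wild type. Its groups overlapped at wild-type replicate 4, the change was -0.85 (SE 0.34, limma adjusted p = 0.268), and it was -0.51 without wild-type replicate 3. Rom1, the partner of Prph2, read 8.83, 8.94 and 8.50 in Mfrp rd6, against 9.04, 9.33, 9.44 and 9.15 in wild type, without overlap (change -0.48, SE 0.13, limma adjusted p = 0.0972). Its values followed the common rod pattern weakly, as given above, and its change without wild-type replicate 3 was -0.42. The microtubule protein Rp1, the phosphodiesterase chaperone Aipl1, the transport protein Tulp1 and the axonemal protein Rp1l1 differed by -0.50, -0.43, -0.19 and -0.14. Reep6 and Prom1 differed by -0.10 each, the ciliary scaffold Rpgrip1 by -0.09 and the actin bundler Fscn2 by -0.07.

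Retinoid handling and the interphotoreceptor matrix had 6 members, 0 of which passed, with a median change of -0.22. Rbp3, the retinoid carrier between photoreceptors and RPE, read 8.01, 8.36 and 8.46 in Mfrp rd6, against 8.39, 8.71, 9.54 and 8.24 in wild type, with overlap (change -0.44, limma adjusted p = 0.49). Rdh12, a retinal reductase of the inner segment, read 5.09, 5.31 and 5.33 in Mfrp rd6, against 5.31, 5.78, 6.06 and 5.20 in wild type (change -0.34, limma adjusted p = 0.436). The matrix proteoglycans Impg2 and Impg1 differed by -0.30 and -0.10, the outer segment reductase Rdh8 by -0.13, and Abca4, which the RPE also makes, by -0.08. The transcription regulators had 3 members and 0 passed. Samd7, a repressor that keeps rod identity, read 5.47, 5.48 and 5.70 in Mfrp rd6, against 5.96, 5.74, 6.21 and 5.39 in wild type (change -0.27, limma adjusted p = 0.491). Crx read 6.07, 6.25 and 6.10 in Mfrp rd6, against 6.32, 6.12, 7.01 and 6.10 in wild type (change -0.25, limma adjusted p = 0.617). Both overlapped between groups, and Nrl differed by -0.18.

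Among other photoreceptor genes, listed with earlier results of these data known, 34 of 39 were measured, and 1 rose and 0 fell in Mfrp rd6. Over all genes 1.34% rose and 0.813% fell. The median change of these 34 genes was -0.16, or -0.08 without wild-type replicate 3. A negative change was seen in 27 of the 34, against 56.5% of all genes. Among 16 genes of the outer segment and cilium 0 passed, with the largest differences for the fatty acid elongase Elovl4 (-0.33, limma adjusted p = 0.24) and the cyclase regulator Rd3 (0.32, limma adjusted p = 0.261). Among 13 synaptic genes 0 passed, and the vesicular glutamate transporter Slc17a7 and the complexin Cplx4 differed most, by -0.32 and -0.26. Of 5 transcription factors, Mef2c rose by 0.73 (limma adjusted p = 0.0162), at 6.74, 6.99 and 6.59 in Mfrp rd6, against 5.95, 6.07, 6.30 and 5.87 in wild type. Mef2c did not pass without Mfrp rd6 replicate 1 (limma adjusted p = 0.0576) or 2 (limma adjusted p = 0.0595) or wild-type replicate 1 (limma adjusted p = 0.055). Microglia, muscle and endothelium express Mef2c too, and the marker lists of all 3 were higher on the same arrays, whose part in its rise was not tested. Neurod1, a basic helix-loop-helix factor of photoreceptors, differed by -0.36 (limma adjusted p = 0.587).

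Between the genotypes the cone genes that passed the test went in both directions. Shares over all genes were 1.34% risen and 0.813% fallen. Of 11 cone markers 2 rose and 1 fell, and the list mean was 6.71 to 6.82 over the Mfrp rd6 arrays, against 6.23 to 6.70 over the wild-type arrays, with a median change of -0.01. Gnb3, the cone transducin beta subunit, and Cngb3, a cone channel subunit, rose by 2.61 and 1.44, while Pde6c, the cone phosphodiesterase, fell by 0.88 on the log2 scale (limma adjusted p = 0.0187). Pde6c passed in 2 of the 7 fits with an array removed, those without wild-type replicate 3 (limma adjusted p = 0.0243) and 4 (limma adjusted p = 0.00394), and the highest adjusted p was 0.0803.

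Beside the rod values stood those of other cells in the same pellets. The counts below stand against 1.34% of all genes risen and 0.813% fallen. Of 14 RPE markers 1 fell, Lrat, which did not pass in 6 of 7 fits without 1 array, and the list mean was 11.13 to 11.18 over the Mfrp rd6 arrays and 11.09 to 11.23 over the wild-type arrays. The isomerase Rpe65 differed by -0.22 (limma adjusted p = 0.24). Microglia and macrophage markers were higher, with 11 of 13 risen and a list mean of 9.05 to 9.64 in Mfrp rd6, against 7.45 to 7.53 in wild type. Tyrobp rose most, by 3.18 (limma adjusted p = 8.64e-06). Of 12 skeletal muscle markers 3 rose (Myh4, Pvalb and Atp2a1), each of which passed without Mfrp rd6 replicate 3 or without wild-type replicate 3 but in none of the other 5 fits with 1 array removed (limma adjusted p up to 0.155). Of 8 choroidal endothelial markers 2 rose (Tek and Plvap), each of which passed without wild-type replicate 4 but in none of the other 6 such fits (limma adjusted p up to 0.144), and the endothelial mean was 7.14 to 7.49 in Mfrp rd6, against 6.61 to 7.02 in wild type. Of 15 markers of bipolar, horizontal, amacrine and ganglion cells 0 passed (list mean 6.86 to 6.93 in Mfrp rd6, against 6.84 to 7.11 in wild type). Nefl differed most among them (-0.90, limma adjusted p = 0.182). Of 8 markers of Müller glia and astrocytes (9.30 to 9.41 in Mfrp rd6, against 9.24 to 9.63 in wild type) and of 8 lens markers, 0 passed. Gfap (-0.45, limma adjusted p = 0.439) and Cryaa (1.29, limma adjusted p = 0.483) differed most in these lists. The glial markers ranged widely in level, with Mfrp rd6 means of 5.95 for Kcnj10 and 5.98 for Gfap, against 13.22 for Apoe. Markers of bipolar, horizontal, amacrine and ganglion cells did too, with Mfrp rd6 means from 4.91 for Pou4f1 to 12.41 for Slc6a9. The mean of a list is therefore not a measure of how many such cells were present. The part of these cells in the rod values was not tested.

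**Figure D4:**
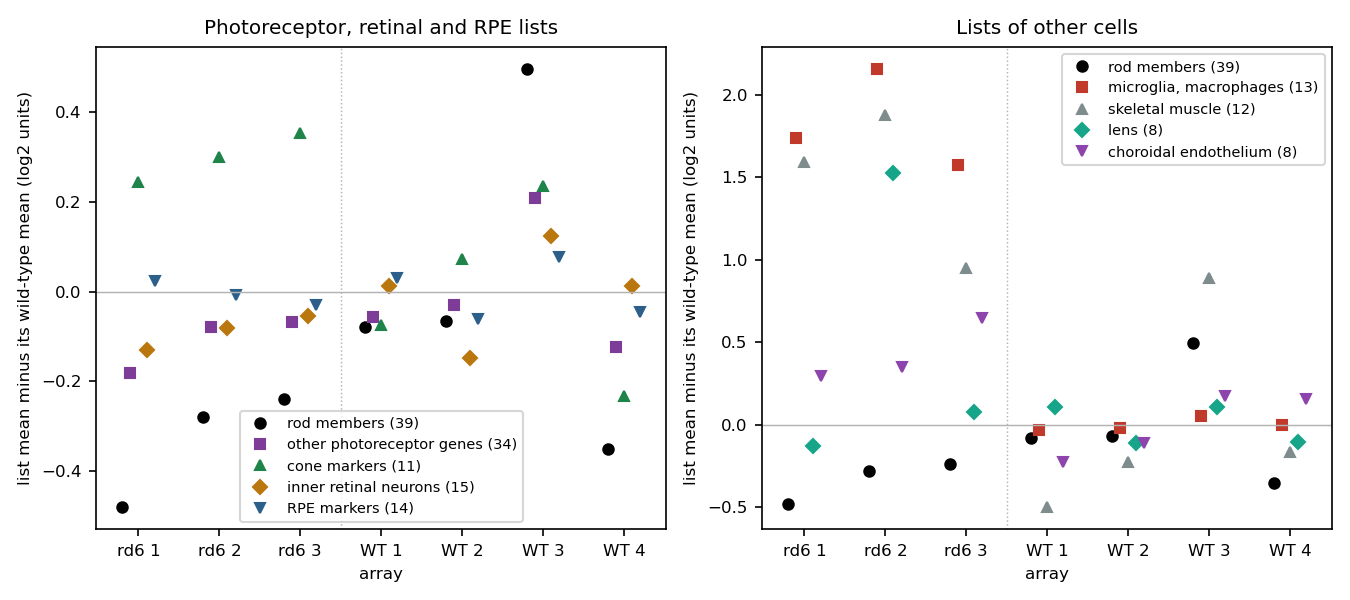
Mean log2 value of each gene list on each array minus the list's wild-type mean, with Mfrp rd6 (rd6) replicates 1 to 3 left of wild-type (WT) replicates 1 to 4; numbers in the legend are measured genes. In the left panel the rod members lie highest on wild-type replicate 3, and in the right panel microglia, skeletal muscle and endothelial lists lie higher on the Mfrp rd6 arrays, and lens markers on Mfrp rd6 replicate 2.

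Genes outside the list were also set against the rod pattern. With no filter on level or range, the deviations of 179 other genes from their group means correlated at 0.9 or more with the mean of the members over the 7 arrays. Among 329 named genes with a mean of at least 6 and a range of at least 1 log2 unit over all arrays, the 10 with the highest correlation were Pde6c (0.95), Slc17a7 (0.94), Pld4 (0.89), Fscn1 (0.89), Kcnab1 (0.89), Tmod2 (0.88), Aanat (0.86), Trdn (0.85), Gnb3 (0.84) and Cox8b (0.81). That range includes the difference between the genotypes, and within a group only Slc17a7 reached 1 log2 unit, so for the other 9 the correlation rests on smaller deviations. These values describe the 7 arrays only.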

How the data were processed

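RNA of 7 RPE samples was hybridised to Affymetrix whole-transcript arrays. The authors deposited 1 table of log2 values, made with Affymetrix Expression Console and RMA per the submitters' processing notes. RMA corrects background, equalises the arrays' distributions and summarises probes. Those notes name no tool version, and neither scanner files nor slide and scan labels were used. Values ran from 1.91 to 13.81, and array medians from 6.52 to 6.58. The number of arrays limits the precision.

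Of 35556 probe sets, 21789 had 1 gene symbol in the platform annotation, which can be old, 1621 had several and 12146 had none. Where a gene had several such probe sets, that of highest mean stood for it, which left 19938 genes. Each was fitted with limma 3.58.1 (R 4.3.3, lmFit and eBayes) as Mfrp rd6 minus wild type, with no filter, block or covariate and 5 residual degrees of freedom, and p-values were adjusted by Benjamini-Hochberg over all genes. The procedure was run on simulated data with independent noise for each gene and array. Genes that vary together across arrays, as the members did, were not simulated. Replicate numbers were not taken to pair the samples: deviations of same-numbered samples correlated at -0.30, -0.07 and 0.04, and those of differently numbered samples at -0.27 to 0.37. With so few arrays these values cannot exclude a shared batch.

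The members, lists and tests were chosen with earlier results of these data known. All members are named. Values by array are given for those called and, in each role group, the 2 with the largest change. From the other lists the 2 with the largest change or those called are named, and 10 genes by likeness to the members' mean. Other genes, and those whose arrays did not overlap, were chosen after their values were seen. Listed genes with no probe set of their own symbol were not analysed here. Promoters are from RefSeq, with 31 of the 39 members matched. Python 3.11.15, pandas 2.3.3 and matplotlib 3.10.9 made tables and figures.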

Additional observations from a re-analysis of the deposited data

How the results depend on the processing

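Cdhr1 passed in all 17 alternatives, with changes of -1.07 to -0.80 and limma adjusted p of 0.00111 to 0.0286, and 0 members rose in any. The change of -0.80 came from the fit with the mean of the other members as a covariate, and in the other fits the changes were -1.07 to -0.87. With a variance trend and robust moderation 4 members were called lower (10.3%), against 1.78% of all genes, namely Gnb1, Slc24a1 and Rom1 beside Cdhr1. With the replicate block 5 of 39 members were called lower, against 59 of all 19938 genes, namely Pde6b, Cnga1, Pdc and Prph2 beside Cdhr1. The replicate numbers were not taken to pair the samples, and that block leaves wild-type replicate 4, low in rod transcripts, without a partner, so its median change of -0.42 equals that without this array. The members' median ran from -0.42 to -0.15 when 1 array was left out, and 1 member was called each time. Genes called over all genes were 162 lower and 267 higher. They were 355 lower with the variance trend, 274 lower and 405 higher with array weights, and 59 lower and 166 higher with the replicate block. When 1 array was left out they were 59 to 108 lower and 152 to 235 higher. Of 647 member values under the alternatives, 605 kept their direction and side of the threshold, 7 passed newly, 0 lost a call and 35 changed sign, none of which had passed. Of these, 20 were in the fits with the mean of the other members as a covariate, which take off the shared part of a change by construction: Pde6g (0.38), Impg1 (0.37), Sag (0.30), Rcvrn (0.20), Fscn2 (0.18), Rp1l1 (0.18), Grk1 (0.17), Tulp1 (0.14), Unc119 (0.13), Crx (0.11), Impg2 (0.10), Rbp3 (0.095), Rpgrip1 (0.090), Aipl1 (0.057), Gnat1 (0.040), Nrl (0.034), Guca1a (0.024), Samd7 (0.015), Cngb1 (0.011) and Rdh8 (0.0035). The other 15 were Unc119 with further quantile normalization (0.024), cyclic loess (0.020) and array weights (0.041), with array weights Sag (0.037), Fscn2 (0.034), Rpgrip1 (0.028) and Impg1 (0.077), and with the mean of probe sets Cngb1 (0.053). With 1 array left out, the changes ran from -0.55 to 0.017 for Pde6g, -0.087 to 0.06 for Unc119, -0.40 to 0.023 for Sag, -0.23 to 0.02 for Rp1l1 and -0.29 to 0.12 for Impg1, each positive without wild-type replicate 3 only, and from -0.16 to 0.08 for Fscn2, positive without that array (0.033) and without Mfrp rd6 replicate 1. Slide and scan date could not be used as a block. Beside the small number of arrays, the closeness of 6 members to the level of olfactory receptor probe sets can limit the size of any change seen for them.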
